A study of Homo sapiens with 4 samples.

Results

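Heme is built from glycine and succinyl-CoA by enzymes that lie partly in the mitochondrion and partly in the cytosol, and iron for it enters most cells with transferrin through the transferrin receptor. The genes described here are 8 heme synthesis enzymes and TFRC, the transferrin receptor gene, 9 of the 18417 genes that could be named on the arrays. They were picked out by gene symbol in the annotation of the array's probe sets, and not by a cut on any measured value. The set was, however, chosen with earlier results of these data known. Each had 1 probe set.

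In K562, the arrays of the line with atovaquone and with vehicle differed most, among these 9 genes, in both ALA synthase genes, ALAS1 and ALAS2, each 1.48-fold brighter with atovaquone, followed by the ferrochelatase gene FECH at 1.38-fold and TFRC at 1.22-fold. In U266 the 8 genes that could be measured differed by at most 1.13-fold. Between the lines, UROD was 5.17-fold brighter in K562 and ALAS2 at least 2.83-fold, while ALAD was 2.15-fold brighter in U266.

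RNA was measured on 4 arrays with 1 array in each of 4 groups. U266, a human multiple myeloma line, was kept for 2 h with DMSO, the vehicle, or with atovaquone at 15 µM. K562, a human chronic myeloid leukaemia line with erythroid features, was kept for 5 h with DMSO or with atovaquone at 20 µM. Atovaquone is a naphthoquinone used against malaria, and it inhibits the mitochondrial cytochrome bc1 complex (complex III). Dose and exposure both differ between the lines, so line, dose and time cannot be told apart in any difference between their responses. With a single array per group no test was possible, no SD or p-value is given, and each ratio compares 2 arrays. The number of arrays limits the precision of every value.

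The pathway starts in the mitochondrion with ALA synthase, which is rate-limiting. ALAS1 encodes the form present in most cells, which heme itself holds down, and ALAS2 the erythroid form, whose mRNA carries an iron responsive element. ALAD, UROS and UROD act in the cytosol, and CPOX, PPOX and FECH in the mitochondrion, where FECH inserts iron into protoporphyrin. TFRC mRNA is stabilised by iron regulatory proteins when iron is short. Erythroid cells raise both heme synthesis and iron uptake to supply hemoglobin.

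Sequences before the transcription start are shown for ALAS1, ALAS2 and FECH, which differ most between K562 arrays, and UROD, which differs most between lines. Each gives 250 bases 5′ to 3′ up to the start in the RefSeq table (GRCh38.p14), at chr3:52197833-52198082 on the plus strand for ALAS1, chrX:55030978-55031227 on the minus strand for ALAS2, chr1:45012004-45012253 on the plus strand for UROD and chr18:57586703-57586952 on the minus strand for FECH. Capitals mark matches, on either strand, to AGATAA, a form of the GATA factor motif, and to CCNCNCCC, a form of the CACCC motif read by KLF1.

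ALAS1: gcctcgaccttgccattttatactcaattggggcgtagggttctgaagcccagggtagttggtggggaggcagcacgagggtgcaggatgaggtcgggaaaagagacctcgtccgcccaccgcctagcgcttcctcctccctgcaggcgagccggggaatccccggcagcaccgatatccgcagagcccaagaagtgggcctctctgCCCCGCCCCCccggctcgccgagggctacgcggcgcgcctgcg

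ALAS2: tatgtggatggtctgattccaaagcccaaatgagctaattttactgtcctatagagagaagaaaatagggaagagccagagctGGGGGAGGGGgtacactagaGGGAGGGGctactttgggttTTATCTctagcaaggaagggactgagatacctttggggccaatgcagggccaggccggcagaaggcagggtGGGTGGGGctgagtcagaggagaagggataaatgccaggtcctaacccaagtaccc

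UROD: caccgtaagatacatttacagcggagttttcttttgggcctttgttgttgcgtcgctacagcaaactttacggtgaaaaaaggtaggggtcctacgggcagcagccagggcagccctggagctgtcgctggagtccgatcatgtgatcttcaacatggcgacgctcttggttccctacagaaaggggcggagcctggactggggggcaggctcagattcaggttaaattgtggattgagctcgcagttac

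FECH: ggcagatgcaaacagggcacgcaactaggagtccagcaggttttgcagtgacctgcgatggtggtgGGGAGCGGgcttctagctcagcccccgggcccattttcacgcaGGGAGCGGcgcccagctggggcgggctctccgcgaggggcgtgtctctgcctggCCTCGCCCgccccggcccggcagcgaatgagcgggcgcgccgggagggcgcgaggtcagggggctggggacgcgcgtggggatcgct

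Positions count from the start, whose last upstream base is −1. AGATAA was found once in the upstream sequence of ALAS2, on the strand opposite the gene as TTATCT, with its first base at −127. It was also found in CPOX, at −207 and −125, and at −63 for 1 of the 2 starts listed for PPOX. Of 34788 distinct upstream sequences in the table, 9.21% hold it. CCNCNCCC was found for at least 1 start of every member in the table but UROD, and 53.3% of all sequences hold it, so a match sets a gene little apart. The NRF1 motif GCGCATGC (2.57% of all sequences), the E-box CACGTG (6.31%) and TGATGNAA, a form of the element read by ATF4 with C/EBP factors (3.16%), were found in none of the 10 sequences of the 8 members listed. A match is a description of letters, and the absence of one says only that these letters are not in this window. These motifs do not overlap in the sequences printed, except that neighbouring CACCC matches can share bases.

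In the first 50 bases of each transcript, the loop of an iron responsive element, CAGTGN with 5 bases between it and a C ahead of it, was found on the sense strand in ALAS2 alone among the members, and in 1.66% of 34719 such windows in the table. The loop is in capitals in bases 9 to 37 of the ALAS2 transcript, shown because translation of this mRNA is known to be controlled there.

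ALAS2 element: ttcgttcgtcctCAGTGCagggcaacagg

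Intensities are the authors' processed values on a linear scale. A value at or above the floor of its array, set at the 40th percentile of annotated probe sets (intensity 330.7 and 323.6 on the U266 arrays and 305.3 and 306.1 on the K562 arrays, vehicle first), counts as measured, and 8 of the 9 genes were measured on all 4 arrays. Ratios are log2 values centred on the median gene. A value under the floor gives only a bound. Both lines showed the genes of their origin on the arrays. Of 14 erythroid markers that could be named, 11 were above the floor on each K562 array and 6 on each U266 array, with summed intensities of 27250 and 27840 against 4519 and 4661. AHSP, which encodes the hemoglobin alpha chaperone, SLC4A1 and EPB42, genes of the mature red cell membrane, were below the floor in both lines. All 12 plasma cell markers were above the floor on each U266 array, against 8 and 7 on the K562 arrays. Of 9 markers of T cells, monocytes, fibroblasts, epithelium and liver, 2 were above the floor on each U266 array and 7 on each K562 array, with summed intensities of 2072 and 2166 against 7838 and 8386, and their part in the results was not tested. In a bulk sample, fewer cells of a type and less RNA per cell cannot be told apart.

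**Figure D1:**
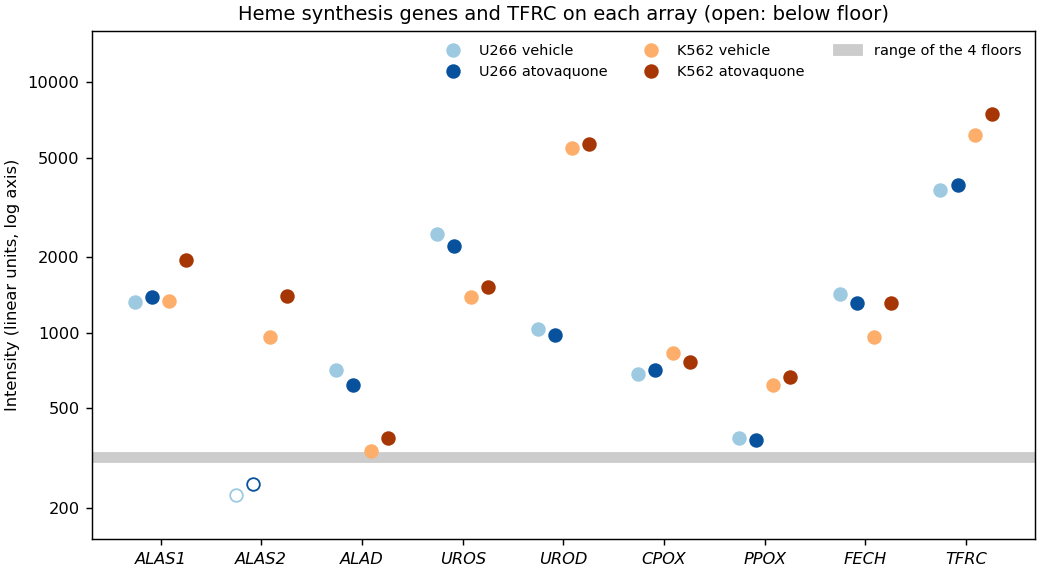
Processed intensity of each of the 9 genes on the 4 arrays (log axis); each point is 1 array, and open points lie below the floor of their array, whose range over the arrays is the grey band. ALAS2 in U266 is below the floor at 223.8 and 248.3, and UROD is at 5484 and 5657 on the K562 arrays. Heights of different genes are not comparable, since each has its own probes.

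The comparison of vehicle arrays asks how the erythroid line differs from the myeloma line without the drug. The vehicle was given for 2 h to U266 and for 5 h to K562, so line and time cannot be told apart in these differences either. Of the 9 genes, 2 were at least 2-fold brighter in K562, against 8.75% of 12574 genes measured on at least 1 of the arrays, and 1 was at least 2-fold brighter in U266, against 11.3%. The median difference, K562 minus U266, was 0.24 with the bound for ALAS2 included, and 0.11 over the 8 genes measured on both arrays, beside 0.00 over all genes. The set held genes far on either side and others near 0. With the floor at the 60th percentile ALAS2 had a bound of 0.47 and ALAD one of −0.18, and neither then counted as 2-fold different, and ALAD did not with 100 units added to each intensity.

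At the first step the forms of ALA synthase differed. ALAS1 had intensities of 1332 on the U266 vehicle array, 1385 on the U266 atovaquone array, 1337 on the K562 vehicle array and 1959 on the K562 atovaquone array. The vehicle arrays of the lines were alike for ALAS1, with a log2 difference of −0.03. ALAS2 had intensities of 223.8 and 248.3 on the U266 vehicle and atovaquone arrays, both below the floor, and 958.2 and 1405 on the K562 arrays. The K562 values are above both U266 values, and the log2 difference between vehicle arrays was at least 1.5.

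The cytosolic enzymes went in opposite directions. UROD, which decarboxylates uroporphyrinogen, had intensities of 1038 and 982.8 in U266 and 5484 and 5657 in K562, vehicle first. Its log2 difference of 2.37 between vehicle arrays was exceeded by 45 of 9483 genes measured on both arrays. ALAD, which joins 2 molecules of ALA to porphobilinogen, had intensities of 708.3 and 620.5 in U266 and 337.4 and 380.2 in K562. Its K562 values lay little above the floor, and the log2 difference was −1.10. UROS, which closes the porphyrin ring, had intensities of 2477 and 2229 in U266 and 1393 and 1518 in K562, a log2 difference of −0.86. For both ALAD and UROS the U266 values exceeded the K562 values whatever the treatment.

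The late mitochondrial enzymes differed less. CPOX, coproporphyrinogen oxidase, had intensities of 685.6 and 709.7 in U266 and 830.1 and 762.3 in K562, a log2 difference of 0.24. PPOX, protoporphyrinogen oxidase, had intensities of 378.6 and 374.0 in U266, close to the floor, and 616.6 and 663.8 in K562, a log2 difference of 0.67. FECH had intensities of 1425 and 1308 in U266 and 959.1 and 1311 in K562, a log2 difference of −0.60 between vehicle arrays. The K562 atovaquone array reached the U266 level for FECH, so the lines overlap for this gene. TFRC had intensities of 3721 and 3899 in U266 and 6163 and 7481 in K562, and both K562 values were above both U266 values, with a log2 difference of 0.70. Set against genes of similar brightness (1 of 5 equal groups by mean intensity), UROD was the single one of the 8 genes measured on both arrays outside the central 95%, which ran from −1.19 to 1.06 in its group. TFRC, in the same group, was inside it.

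**Figure D2:**
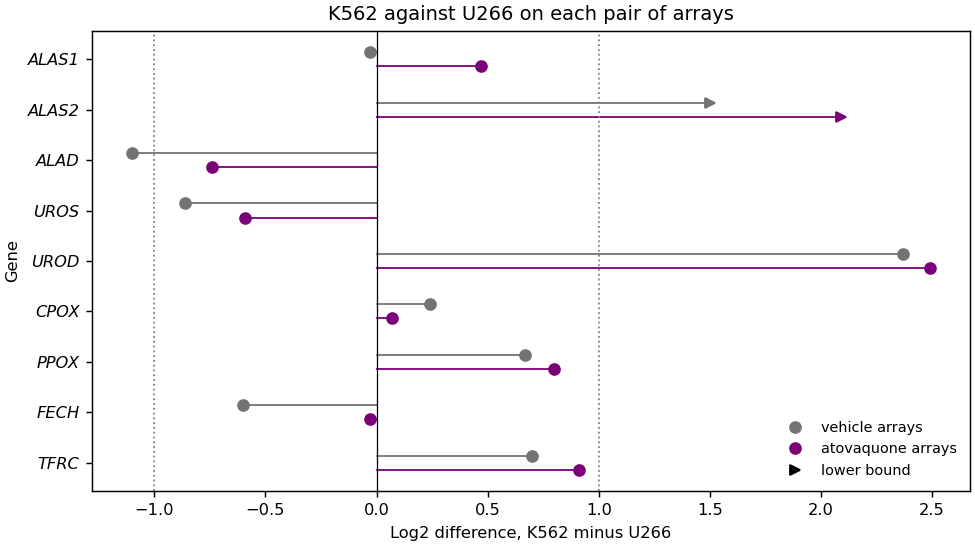
Log2 difference, K562 minus U266, for each gene on the vehicle arrays (grey) and the atovaquone arrays (purple); arrowheads are lower bounds and dotted lines mark 2-fold. UROD lies at 2.37 and 2.49, and ALAS2 at no less than 1.5 and 2.09.

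On the atovaquone arrays, where the dose differs as well as the time and the line, 2 of the 9 genes were at least 2-fold brighter in K562 (9.05% of 12558 genes) and 0 in U266 (11.6%). UROD stood at 2.49, ALAS2 at no less than 2.09, TFRC at 0.91, PPOX at 0.80, CPOX at 0.07, UROS at −0.59 and ALAD at −0.74. ALAS1 and FECH moved furthest from their vehicle values among the genes measured on all arrays. ALAS1 stood at 0.47, against −0.03 between vehicle arrays, and FECH at −0.03, against −0.60. Apart from centring and rounding, these shifts are the same quantity as the gaps between the lines' atovaquone ratios given below, and not a separate observation.

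The comparison of atovaquone with vehicle in K562 asks how these genes stand after 5 h at 20 µM. Of the 9 genes, 8 had a log2 ratio above 0 and CPOX lay below it, beside 50% of all genes, a share set by the centring. The median was 0.18, beside 0.00 over all 10756 genes measured on both arrays. None of the 9 reached 1.5-fold in either direction with atovaquone, while 1.60% of 11353 genes measured on at least 1 array did so upward and 0.643% downward. ALAS1 and ALAS2 stopped just short of that size.

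ALAS1 went from an intensity of 1337 with vehicle to 1959 with atovaquone, a log2 ratio of 0.56 that 182 of 10756 genes exceeded. ALAS2 went from 958.2 to 1405, also a log2 ratio of 0.56, exceeded by 180 genes. Both lay outside the central 95% of genes of similar brightness, which ended at 0.46 for ALAS1 and at 0.54 for ALAS2. The first step of the pathway thus had the highest ratios of the set, in both of its forms.

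FECH, the last step, went from 959.1 to 1311, a log2 ratio of 0.46 at percentile 97.1 of all genes and percentile 96.5 of genes of similar brightness. TFRC went from 6163 to 7481, a log2 ratio of 0.29 at percentile 91.6 of all genes. Among the brightest genes, where ratios spread less, TFRC was at percentile 96.5, inside the central 95%, which ended at 0.33. The 5 enzyme genes of the middle steps were nearer 0. ALAD stood at 0.18, UROS at 0.13, PPOX at 0.12, UROD at 0.06 and CPOX at −0.11. As a scale for the error of a single probe set, log2 ratios from different probe sets of the same gene differed with an SD of 0.163 over 417 genes in K562. That SD leaves out the spread between cultures, which these arrays do not show.

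**Figure D3:**
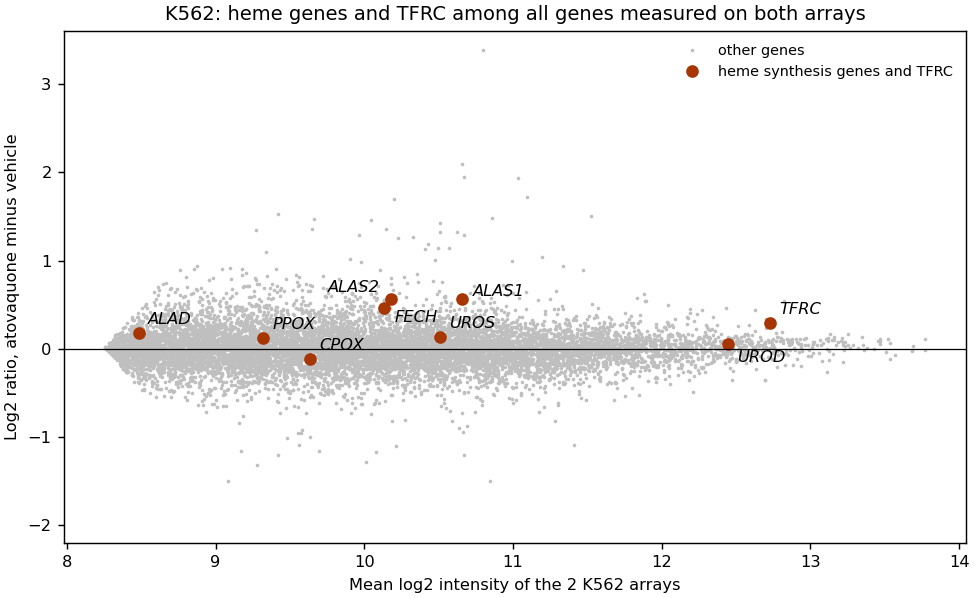
Log2 ratio of atovaquone to vehicle in K562 against mean log2 intensity, for all 10756 genes measured on both arrays (grey points) and the 9 genes described here (brown). ALAS1 and ALAS2 at 0.56 lie at the upper edge of the cloud and CPOX at −0.11 is the single member below 0.

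The comparison in U266 asks the same after 2 h at 15 µM. ALAS2 was below the floor on both arrays and has no ratio. Of the other 8 genes, 3 lay above 0 and 5 below, with a median of −0.04. PPOX, counted below at −0.01, stood at 0.01 after quantile normalisation. None reached 1.5-fold, while 1.01% of 11264 genes did so upward and 0.142% downward. TFRC stood at 0.08, ALAS1 at 0.07, CPOX at 0.06, PPOX at −0.01, UROD at −0.07, FECH at −0.11, UROS at −0.14 and ALAD at −0.18. All 8 lay within the central 95% of genes of similar brightness. UROS, with a range for its group from −0.18 to 0.26, came closest to an end of it. Log2 ratios from different probe sets of the same gene differed with an SD of 0.147 in U266 over 399 genes.

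**Figure D4:**
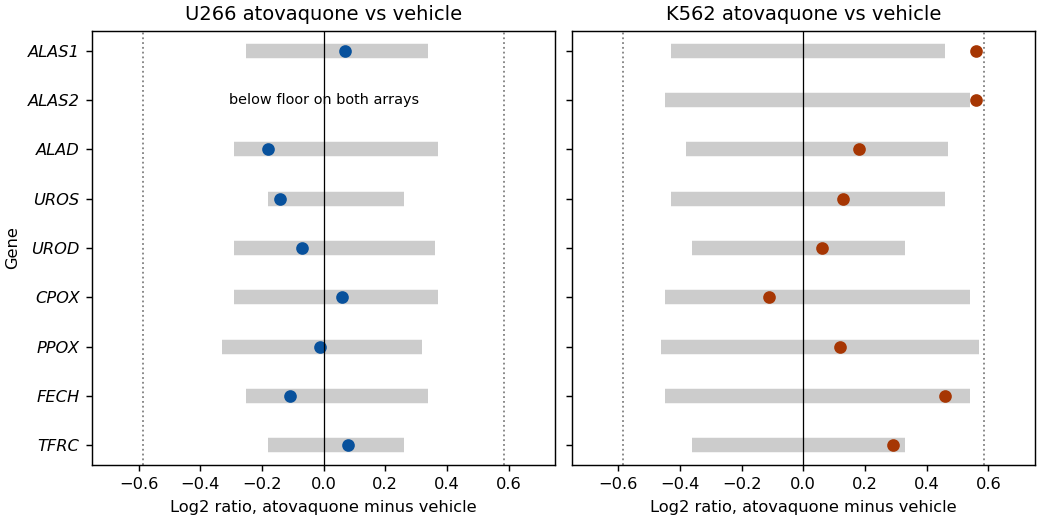
Log2 ratio of atovaquone to vehicle for each gene in U266 (blue) and K562 (brown); grey bars span the central 95% of genes of similar brightness and dotted lines mark 1.5-fold. ALAS1 and ALAS2 in K562 lie beyond the end of their bars, and every U266 point lies within its bar.

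The log2 ratio was higher in K562 than in U266 for 7 of the 8 genes with a ratio in both lines, CPOX being the exception at −0.17. FECH had the largest gap, 0.58, at percentile 97.9 of 9222 genes measured on all 4 arrays. ALAS1 followed at 0.50, at percentile 97.0, just inside the central 95%, which ran from −0.48 to 0.54. The gaps of ALAD and UROS were 0.36 and 0.28, that of TFRC 0.21, and those of PPOX and UROD 0.13 and 0.12. The signs of the 2 ratios were opposite for 6 of the 8 genes, most of them with small values on both sides. For PPOX this depends on a U266 value near 0. The shares of all genes with a higher ratio in K562, or with opposite signs, were not computed. Neither count is therefore read as a trait of the set.

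The lists of related genes were read for whether the same shift is found around the pathway. Other genes of heme synthesis and porphyrin transport had 8 genes measured on both K562 arrays, 6 of them above 0, with a median log2 ratio of 0.07 and 0 of them at least 1.5-fold different. Between vehicle arrays, FAM210B, a mitochondrial protein gene of erythroid cells, stood at 0.86 and ABCB10, a mitochondrial transporter that stabilises the iron importer mitoferrin, at 0.75. TMEM14C, which moves protoporphyrinogen into the matrix, stood at 0.51 and SLC25A39, a mitochondrial glutathione carrier, at 0.20. None of this list was at least 2-fold different between the lines. In U266 its median with atovaquone was −0.03 over 8 genes, 3 of them above 0.

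Genes that supply or use glycine and succinyl-CoA, the substrates of ALA synthase, had 8 of 8 measured genes above 0 in K562, with a median log2 ratio of 0.15, and 8 of 9 in U266, with a median of 0.06. None was at least 1.5-fold different. GLDC, which cleaves glycine, was below the floor in K562, with intensities of 248.1 against 2357 between vehicle arrays, and so at least 7.89-fold brighter in U266. SUCLA2, a succinyl-CoA synthetase subunit, stood at 0.75 between the lines, DLD at 0.54 and DLST at 0.44.

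Genes of heme breakdown, export and sensing had 5 of 8 measured genes above 0 in K562, with a median log2 ratio of 0.10, and 0 at least 1.5-fold different. The heme oxygenase gene HMOX1, which opens the porphyrin ring, had intensities of 1113 and 1214 in U266 and 915.8 and 860.8 in K562, vehicle first. Its log2 ratios with atovaquone were 0.14 and −0.08. FLVCR1, a carrier once described as a heme exporter and named here after its values were seen, went from 1202 to 844.2 in K562, a log2 ratio of −0.50, and stood at −0.18 in U266. BLVRB, a biliverdin reductase of erythroid cells, had intensities of 1680 in K562 and 682.1 in U266 with vehicle, a log2 difference of 1.27. EIF2AK1, the heme-regulated eIF2α kinase, stood at 0.55 between the lines, BACH1, a heme-binding repressor, at −0.51 and HMOX2 at 0.47.

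Of the list of iron uptake, storage and regulation, 16 genes could be measured with vehicle in 1 line or both, and 5 of them were at least 2-fold brighter in K562, beside 8.75% of all genes, and 0 in U266, beside 11.3%. SLC40A1, the iron exporter ferroportin, was at least 5.13-fold brighter in K562, TFR2, which encodes transferrin receptor 2, at least 4.90-fold, STEAP3, which reduces iron released from transferrin, at least 3.41-fold, and the mitochondrial iron importer SLC25A37 (mitoferrin-1) 3.04-fold. The genes given as at least were below the floor in U266 and entered the count through K562 alone. Over the 12 genes of the list measured on both vehicle arrays the median log2 difference was −0.04, 5 of them being above 0. These 12 genes were thus not shifted toward K562 as a group. With the bounds of the genes below the floor in U266 included, the median of the list was 0.20. With atovaquone in K562 the 16 genes of the list measured on both arrays had a median log2 ratio of 0.05, 10 of them above 0. TF, the transferrin gene, was below the floor with vehicle at 203.2 and at 466.3 with atovaquone, a log2 ratio of at least 0.62. SLC25A37 stood at 0.09, TFR2 at 0.12 and SLC40A1 at −0.20. The ferritin light chain gene FTL had intensities of 9272 and 10650 in U266 and 7527 and 8055 in K562, with log2 ratios of 0.21 and 0.11. FTH1 and IREB2 were not analysed here. The U266 list had a median of 0.03 over 12 genes.

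Iron-sulfur cluster assembly, the other main use of mitochondrial iron, had 11 of 14 measured genes above 0 in K562 with a median log2 ratio of 0.08, and a median of 0.01 in U266. NFU1, a late-acting cluster scaffold, was the single gene of the list at least 1.5-fold different, with intensities of 701.2 and 1048 in K562 and a log2 ratio of 0.59. Between the lines FDX1, a ferredoxin, was 2.68-fold brighter in U266, ISCU, the main scaffold, stood at −0.95, ISCA2 at −0.84 and GLRX5, a glutaredoxin needed by erythroid cells, at 0.77.

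Erythroid markers in K562 had a median log2 ratio of 0.06 with atovaquone, 6 of 11 measured genes being above 0. HBB, the adult beta globin gene, was at least 1.5-fold different, going from 332.8, near the floor, to 505.3. GATA1, the erythroid transcription factor, went from 3054 to 2768, a log2 ratio of −0.13, and the embryonic globin gene HBZ stood at 0.06. HEMGN, an erythroid nuclear protein gene, stood at 0.42 and LMO2, a partner of GATA1, at −0.37, both named after their values were seen. Of the markers measured, HBB was the single one with a higher log2 ratio than ALAS1, ALAS2 or FECH. Between vehicle arrays HBZ was 17.8-fold brighter in K562, GATA1 at least 9.03-fold, the Rh-associated glycoprotein RHAG at least 11.3-fold and the embryonic globin gene HBE1 9.80-fold. Among plasma cell markers XBP1, a transcription factor of secretory cells, was at least 1.5-fold different in K562, at 0.64.

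**Figure D5:**
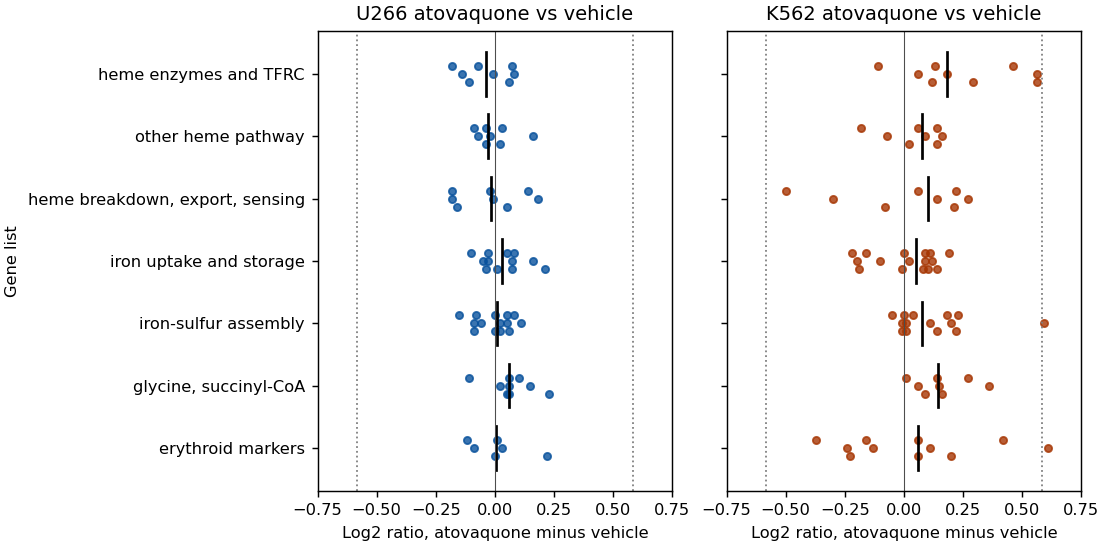
Log2 ratio of atovaquone to vehicle in U266 (blue) and K562 (brown) for each gene measured on both arrays, by list; black bars are list medians and dotted lines mark 1.5-fold. The median of the heme enzymes and TFRC is −0.04 in U266 and 0.18 in K562, and that of the erythroid markers in K562 is 0.06.

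The genes whose pattern over the 4 arrays was nearest to a member were found by Euclidean distance between log2 intensities after subtracting each gene's mean, among 12844 genes above the floor on at least 1 array. With 4 points per gene, and 2 arrays from each line, many genes share a pattern. For ALAS1 the nearest were YEATS4 at a distance of 0.05, CSAD at 0.06 and SLC7A1 at 0.07. For TFRC they were RBM41 and ACAT1, both at 0.04, and MTIF3 at 0.05. Among the members, PPOX was the nearest to TFRC, at 0.15 and rank 106 among all these genes. CPOX was the member nearest to ALAS1, at 0.48, but only at rank 2815, so their patterns were not close. No distance is given for ALAS2, whose U266 values lie below the floor.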

How the data were processed

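The deposited values are the authors' processed intensity per probe set, linear, from 1 array per sample, hybridised with biotin-labelled cRNA per the labels' protocols. They came with background correction, normalisation and probe summary not given in the sources used here. Of 33252 probe sets, 19460 carry 1 gene symbol in the platform annotation, giving 18417 genes. Where a gene had several, the brightest by mean log2 intensity stood for it. Values under an array's floor, the 40th percentile of annotated probe sets, were raised to it, and give bounds. Log2 ratios were centred on the median of genes measured on both arrays, which removed −0.0097 in U266, −0.0105 in K562 and 0.0321 between vehicle arrays. No test was run with 1 array per group. Counts use 1.5-fold for the drug and 2-fold between lines. Members and lists were chosen with earlier results of these data known. Named genes were all members, HMOX1, FTH1, FTL and GATA1, listed genes at least 1.5-fold different with atovaquone, and up to 4 per list by difference between lines, beside FLVCR1, HEMGN and LMO2, named after their values were seen. Those of the plasma cell list and some others are given as counts. Alternatives were other floors, no centring, quantile normalisation, the mean of probe sets and a pseudocount of 100. Python 3.11.15, numpy 2.4.6 and pandas 2.3.3 were used, and the ratio step was tested on simulated data.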

Additional observations from a re-analysis of the deposited data

Results flagged for a closer look

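FECH had log2 ratios of atovaquone to vehicle with opposite signs in the lines, −0.11 in U266 and 0.46 in K562. The gap of 0.58 lies at percentile 97.9 of the gaps of 9222 genes. The difference was not tested, since each line has 1 array per group, and line, dose and time cannot be told apart in it.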

How the results depend on the processing

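Each ratio was recomputed under 7 alternatives. In K562 all 62 recomputed member ratios of atovaquone to vehicle moved by less than the SD of the difference between probe sets of a gene, with ALAS1 between 0.53 and 0.57, ALAS2 between 0.52 and 0.57 and FECH between 0.42 and 0.47. Some of these outcomes were fixed in advance. Each member has 1 probe set, so the mean of probe sets could act only through the centring. Leaving out the centring moves all ratios of a comparison by the same small amount. Counts of members at least 1.5-fold different with atovaquone were 0 in both lines under every alternative run. With no floor, or the floor at the 20th percentile, ALAS2 in U266 had a log2 ratio of 0.17. Between vehicle arrays, ALAS2 stood at 2.13 with no floor and at no less than 0.47 with the floor at the 60th percentile. With that floor 1 gene was at least 2-fold brighter in K562 and 0 in U266, as ALAD had only an upper bound of −0.18. With a pseudocount of 100, which shrinks ratios of dim genes, 0 genes were at least 2-fold brighter in U266. ALAS1 between vehicle arrays, FECH between atovaquone arrays and PPOX in U266 lay near 0 and changed sign within that SD, with ranges from −0.05 to 0.03, from −0.05 to 0.02 and from −0.02 to 0.01. No paired analysis was possible because each group has 1 array and the labels give no replicate numbers. Signal near the floor limits ALAD and PPOX.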
